A study of Homo sapiens with 6 samples.

Results

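Genes of cholesterol synthesis and its control by the sterol regulatory element-binding proteins (SREBPs) were examined in the RNA-seq libraries of H9 cells, namely SREBF1, SREBF2, INSIG1, HMGCS1, IDI1, SQLE, FDFT1 and DHCR7. They were taken by gene name from a table of 61541 genes, in which each of the 8 names matched 1 row, and all 8 were among the 17678 genes that passed the filter on low counts. H9 is a cutaneous T-cell lymphoma line, labelled as wild type, and all libraries came from this line alone. Cells of 3 libraries received the vehicle DMSO, for which the labels give no time. Cells of the other 3 received AZD4573, a selective CDK9 inhibitor, for 4 h, at 50 nM according to the supplemental material. CDK9 is the kinase of P-TEFb that releases paused RNA polymerase II into elongation, and the comparison asks how transcript levels differed after its inhibition. The labels do not say whether the libraries of a group came from separate cultures, so that p-values measure only the spread between these libraries, which may be technical.

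Cells make cholesterol from acetyl-CoA through mevalonate, isoprenoid pyrophosphates and squalene. SREBP-2, encoded by SREBF2, is the main activator of the enzymes of this pathway, and SREBP-1, encoded by SREBF1, acts more on fatty acid synthesis. Both are made as precursors in the endoplasmic reticulum, where SCAP carries them to the Golgi for cleavage when sterols are low, and INSIG proteins hold SCAP back when sterols are high. The freed fragment enters the nucleus and binds sterol regulatory elements (SREs), often beside a CCAAT box bound by NF-Y. Many of the target mRNAs, including those of SREBF2 and INSIG1, are themselves raised by SREBP in this way.

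The sequences before the start sites of both SREBP genes and of HMGCS1 and IDI1, enzyme genes whose transcripts fell, are shown. SREBF2 has a match to the SRE consensus, whereas SREBF1, HMGCS1 and IDI1 have none. INSIG1 and DHCR7, which also have none, are not printed. The printed sequences were taken from RefSeq on GRCh38.p14 and are given 5′ to 3′ along the gene. Each ends before the GENCODE release 44 start or the RefSeq start nearest to it, whichever comes first along the gene. RefSeq also gives IDI1 a start 7585 bases upstream of the GENCODE start, which was not used for printing. Capitals mark matches to the SRE consensus TCACNCCAC (N is any base) and to the CCAAT box, which reads ATTGG on the other strand. The HMGCS1 sequence leaves out the 100 bases before its RefSeq start. Its other CCAAT match, from 100 to 96 bases before that start, is therefore not printed. The windows lie at chr22:41832855-41833104 (plus strand) for SREBF2, chr17:17837003-17837236 (minus strand) for SREBF1, chr5:43313513-43313662 (minus strand) for HMGCS1 and chr10:1049120-1049369 (minus strand) for IDI1.
SREBF2: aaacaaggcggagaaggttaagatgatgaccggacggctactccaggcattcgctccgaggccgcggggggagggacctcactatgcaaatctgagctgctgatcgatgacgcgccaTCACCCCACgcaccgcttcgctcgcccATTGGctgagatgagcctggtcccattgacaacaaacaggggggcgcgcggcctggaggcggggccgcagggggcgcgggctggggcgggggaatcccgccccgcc
SREBF1: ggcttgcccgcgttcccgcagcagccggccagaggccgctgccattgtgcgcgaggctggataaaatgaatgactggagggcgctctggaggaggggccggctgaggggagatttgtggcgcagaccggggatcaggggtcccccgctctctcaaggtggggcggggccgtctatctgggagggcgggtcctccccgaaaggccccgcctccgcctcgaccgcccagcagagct
HMGCS1: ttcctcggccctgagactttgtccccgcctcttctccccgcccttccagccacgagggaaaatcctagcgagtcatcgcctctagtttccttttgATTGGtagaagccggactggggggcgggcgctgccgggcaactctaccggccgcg
IDI1: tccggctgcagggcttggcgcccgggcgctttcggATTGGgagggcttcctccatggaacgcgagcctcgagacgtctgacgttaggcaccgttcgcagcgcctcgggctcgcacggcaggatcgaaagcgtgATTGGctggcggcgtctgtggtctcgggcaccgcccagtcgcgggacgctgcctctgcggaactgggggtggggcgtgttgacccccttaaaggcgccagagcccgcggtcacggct

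SREBF2 held the sequence TCACCCCAC from 133 to 125 bases before its start, and a CCAAT box on the other strand from 106 to 102 bases before it. The SRE consensus was searched on both strands in the 250 bases before each RefSeq start, where 310 of 35116 windows (0.883%) held it. Of the 6 members with such a window, 1 (SREBF2) held it, and of 13 other enzymes of the pathway with a window, 0 did. The windows of DHCR7 belong to RefSeq starts 3825 and 4475 bases from its GENCODE start, so that the bases before the latter were not searched. Only exact matches to these 9 letters were counted, and sites with other sequences or outside the windows were not searched. A window without a match therefore does not show that the gene lacks an SRE. The CCAAT box was in 6 of the 10 windows of the members and in 11 of the 14 windows of the other enzymes, against 32.0% of all windows. SREBF1 was the member with no such window. The GC box GGGCGG was in 9 of the 10 and 12 of the 14 windows, against 42.6% of all windows. None of the matches printed here overlaps another motif. SQLE, FDFT1 and ACAT2 had no entry.

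Total counts ranged from 70367303 to 76571157 with DMSO and from 52101868 to 63795185 with AZD4573. Levels are given as CPM, the count of a gene relative to its library total after edgeR's TMM scaling (factors 0.957 to 1.04). The 13 mRNAs encoded by the mitochondrial genome made up 4.85% ± 0.162 of an AZD4573 library and 3.13% ± 0.0929 of a DMSO library (SD, n = 3). The summed level of 14 T-cell markers was 1974 to 2010 CPM with DMSO and 2574 to 2666 CPM with AZD4573, with CD2 close to absent (at most 0.166 CPM). Of 15 markers of other cell types, 11 stayed under 1 CPM in each library. The sum of the 15 ranged from 218 to 240 CPM with DMSO and from 234 to 244 CPM with AZD4573. Most of it came from EPCAM and CD79A. Single markers went both ways within these sums. Mean EPCAM went from 155 CPM with DMSO to 134 CPM with AZD4573, and CD79A from 57.8 to 93.6 CPM. Among T-cell markers, TRBC1 went from 263 to 507 CPM and CD28 from 5.85 to 4.35 CPM. The part of these shifts in the results was not tested. In bulk libraries, fewer cells of a type and less RNA per cell cannot be told apart.

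Upon AZD4573 treatment, 4 of the 5 enzyme genes among the members (HMGCS1, IDI1, SQLE and DHCR7) fell to between 44.9% and 56.7% of their DMSO level, and SREBF2 rose to 160%. SREBF1, INSIG1 and FDFT1 were not called. Calls required both a change of 1.5-fold or more and an adjusted p below 0.05, from the quasi-likelihood test of edgeR with the Benjamini-Hochberg method applied across all genes. By this rule 4 members were lower, against 23.7% of all genes tested, 1 was higher, against 22.7%, and 5 of 8 were called in either direction, against 46.4%. The adjusted p alone was passed by 6 of 8 members, against 74.7%. The 3 libraries of each group did not overlap for 7 of 8 members, against 77.8%, of which 6 were lower (38.7%) and 1 higher (39.0%). The median log2 fold change was -0.51 over the members and 0.03 over all genes tested. When libraries were instead scaled to the 13 mitochondrial mRNAs, 7 members were lower and 0 higher, beside 9433 lower and 1769 higher genes of all 17678.

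**Figure D1:**
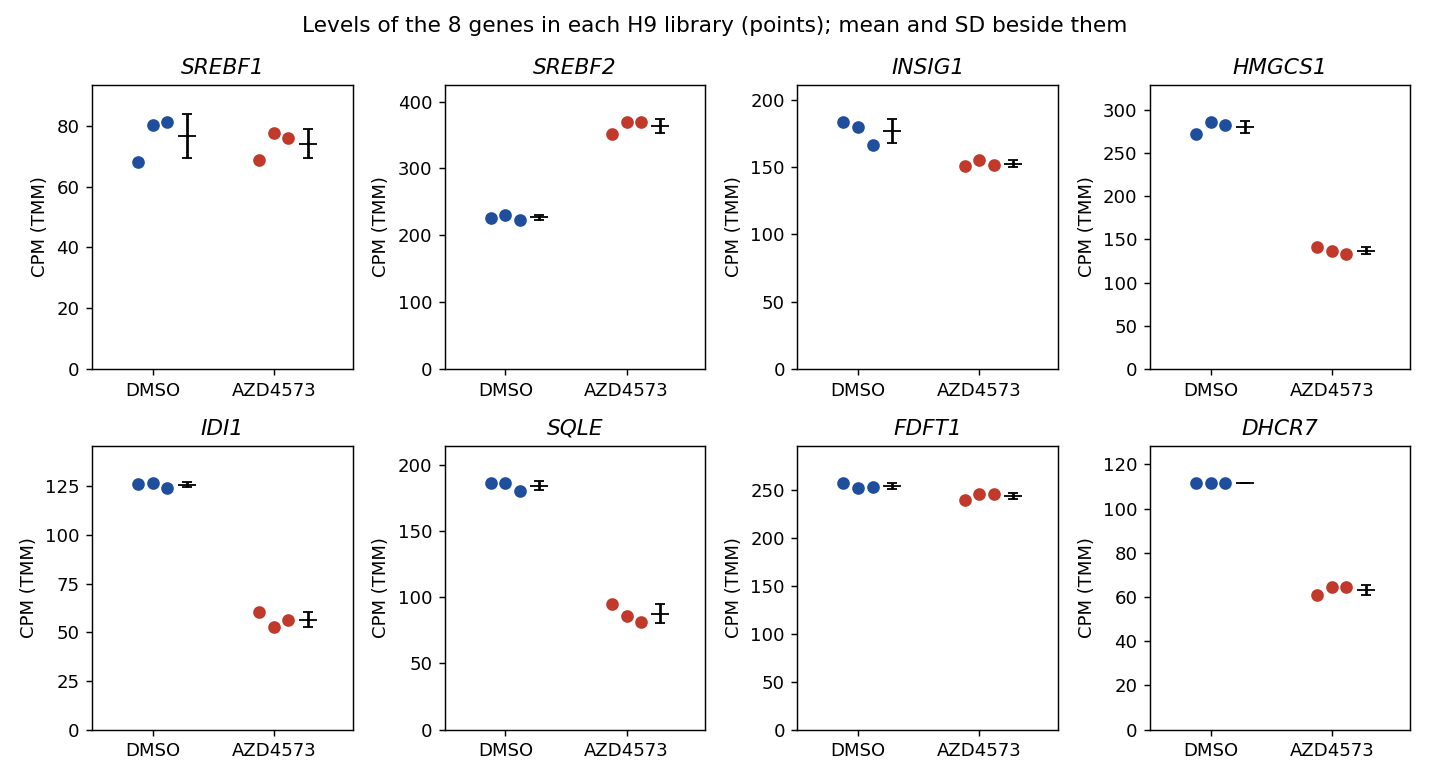
Levels of the 8 genes in CPM (vertical axes, from 0) in each of the 3 DMSO (blue) and 3 AZD4573 (red) libraries, with the mean and SD in black beside each group. HMGCS1, IDI1, SQLE and DHCR7 sit below their DMSO points and SREBF2 above them in all AZD4573 libraries, while the groups overlap for SREBF1.

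SREBF2 (ENSG00000198911, chromosome 22 from 41833105 to 41907306) was the member that rose. It was at 226, 231 and 223 CPM in the DMSO libraries and at 352, 369 and 369 CPM in the AZD4573 libraries. The DMSO libraries lay close to each other, and the lowest AZD4573 library was well above the highest of them. This gave a log2 fold change of 0.68 (standard error, SE, 0.0398, edgeR adjusted p = 3.6e-09), a 1.60-fold rise. With library size as the only scaling it was 0.58, just short of the fold threshold, and scaled to the mitochondrially encoded mRNAs it reversed to -0.06 (edgeR adjusted p = 0.333). Counting without strand cannot separate the 731 of its 8053 exon bases that it shares with SREBF2-AS1, which had at most 415 counts in a library, where SREBF2 had at least 16392.

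SREBF1 (ENSG00000072310, chromosome 17 from 17810399 to 17837002), whose protein drives fatty acid synthesis, was at 68.2, 80.4 and 81.3 CPM in the DMSO libraries and at 68.8, 77.6 and 76.1 CPM in the AZD4573 libraries. The groups overlapped, with replicate 1 the lowest library of each. The log2 fold change was -0.05 (95% confidence interval -0.19 to 0.10, edgeR adjusted p = 0.552). SREBF1 shares 556 of its 8234 exon bases with RAI1 on the opposite strand, a gene with up to 14743 counts in a library and a log2 fold change of 0.66, and these reads cannot be separated without strand.

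The count ratio of SREBF1 to SREBF2 within a library does not depend on how libraries are scaled. It was 0.301, 0.348 and 0.365 with DMSO and 0.196, 0.210 and 0.206 with AZD4573, so that each AZD4573 library lay below each DMSO library. The mean log2 ratio was lower by 0.73 with AZD4573 (-2.29 ± 0.0542 against -1.57 ± 0.145, SD, n = 3, two-sided exact permutation test, p = 0.1). This is the smallest p that 3 against 3 libraries allow.

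INSIG1 (ENSG00000186480, chromosome 7 from 155297776 to 155310235) encodes the sterol-dependent anchor that keeps SCAP and SREBP in the endoplasmic reticulum. It was at 184, 180 and 167 CPM with DMSO and at 151, 156 and 152 CPM with AZD4573. Each AZD4573 library was below each DMSO library. The log2 fold change of -0.21 (95% confidence interval -0.31 to -0.11, edgeR adjusted p = 0.000842) passed the test but not the fold threshold.

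HMGCS1 (ENSG00000112972, chromosome 5 from 43287470 to 43313512), which joins acetyl-CoA to acetoacetyl-CoA in the step before mevalonate is made, was at 273, 286 and 283 CPM with DMSO and at 141, 137 and 133 CPM with AZD4573. Its log2 fold change was -1.03 (SE 0.0416, edgeR adjusted p = 1.6e-10), a 2.05-fold fall. All AZD4573 libraries lay close to one another and far below the DMSO libraries. Of its 6627 exon bases, 2497 are shared with ENSG00000261604 on the opposite strand, which had 0 counts in all libraries.

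IDI1 (ENSG00000067064, chromosome 10 from 1039152 to 1049119), which turns isopentenyl into dimethylallyl pyrophosphate, had the largest fold change of the 8 genes. It was at 126, 127 and 124 CPM with DMSO and at 60.5, 52.8 and 56.1 CPM with AZD4573, a log2 fold change of -1.16 (SE 0.0520, edgeR adjusted p = 3.9e-10). The DMSO libraries differed little, and each AZD4573 library had less than each of them. Its 3 named pseudogenes had 0 counts, and IDI2-AS1, which shares 643 of its 4294 exon bases, had at most 343.

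SQLE (ENSG00000104549, chromosome 8) encodes squalene epoxidase, which oxidises squalene in the first oxygen-dependent step. It was at 187, 186 and 180 CPM with DMSO and at 95.3, 85.8 and 81.2 CPM with AZD4573. The log2 fold change was -1.08 (SE 0.0550, edgeR adjusted p = 1.1e-09), with the spread among AZD4573 libraries small beside the gap between groups. FDFT1 (ENSG00000079459, chromosome 8) encodes squalene synthase, which makes the substrate of SQLE. It was at 258, 252 and 254 CPM with DMSO and at 240, 246 and 246 CPM with AZD4573. Each AZD4573 library was below each DMSO library, but the log2 fold change was only -0.06 (95% confidence interval -0.14 to 0.02, edgeR adjusted p = 0.152).

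DHCR7 (ENSG00000172893, chromosome 11 from 71428193 to 71452868), the reductase that turns 7-dehydrocholesterol into cholesterol, was at 111, 112 and 112 CPM with DMSO and at 60.8, 64.5 and 64.4 CPM with AZD4573. The DMSO libraries were nearly identical and the AZD4573 libraries all lay below them. Its log2 fold change was -0.82 (SE 0.0441, edgeR adjusted p = 1.8e-09), a 1.76-fold fall. None of the exon bases of DHCR7, SQLE or INSIG1 is shared with another annotated gene.

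The members also differed in the length of the gene. SREBF2, the member that rose, spans 74202 bases, followed by FDFT1 with 43823. The 4 enzyme genes that fell span 9968 (IDI1), 23787 (SQLE), 24676 (DHCR7) and 26043 bases (HMGCS1). SREBF1 spans 26604 bases and INSIG1 12460. Other enzymes of the pathway did not all follow this order. MVK spans 24871 bases and was lower (log2 fold change -1.40), but so was CYP51A1 with 49817 bases (-1.06). FDPS spans 11919 bases and had a log2 fold change of 0.35, short of the fold threshold. These spans are a description and were not tested.

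Per kilobase of merged exons, the levels of the members were ordered among themselves. Merged exons join those of all annotated transcripts of a gene and can exceed the length of the transcript expressed. The length that RSEM assigns to each gene was not used. The order between genes therefore depends on the annotation and could differ with the lengths of the transcripts expressed. With DMSO the order of mean levels was FDFT1 (50.1 CPM per kilobase), INSIG1 (48.4), SQLE (42.8), HMGCS1 (42.3), IDI1 (29.3), SREBF2 (28.1), DHCR7 (16.2) and SREBF1 (9.31). The libraries of FDFT1 and INSIG1 overlapped, as did those of SQLE and HMGCS1. With AZD4573 the mean level of SREBF2 was 45.1 CPM per kilobase, behind FDFT1 (48.0) and ahead of INSIG1 (41.8). HMGCS1 (20.7) and SQLE (20.3) still overlapped, as did DHCR7 (9.19) and SREBF1 (9.01), while IDI1 lay between these pairs at 13.2.

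The other 16 enzymes between acetyl-CoA and cholesterol were listed to place the members in the pathway. Of these, 5 were called lower (23.7% of all genes tested) and 0 higher (22.7%), and their median log2 fold change was -0.32. MVK, which phosphorylates mevalonate, had a log2 fold change of -1.40. CYP51A1, the lanosterol demethylase, had -1.06, although it shares 2827 of its 4171 exon bases with ENSG00000289027 (at most 413 counts in a library). NSDHL, another late enzyme of the pathway, had -1.05.

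The members and the other enzymes together gave 9 lower and 0 higher genes of 21, where 23.7% and 22.7% of all genes tested were so called. The lower enzymes included HMGCS1 and MVK early in the pathway, IDI1 and SQLE in its middle, and CYP51A1, NSDHL and DHCR7 late. Enzymes between these, such as PMVK, FDFT1 and LSS, were not called. At an adjusted p under 0.05 without the fold threshold, 15 of the 21 were lower and 4 higher, against 37.4% and 37.3% of all genes tested, and FDFT1 was among the 2 that missed the test.

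**Figure D2:**
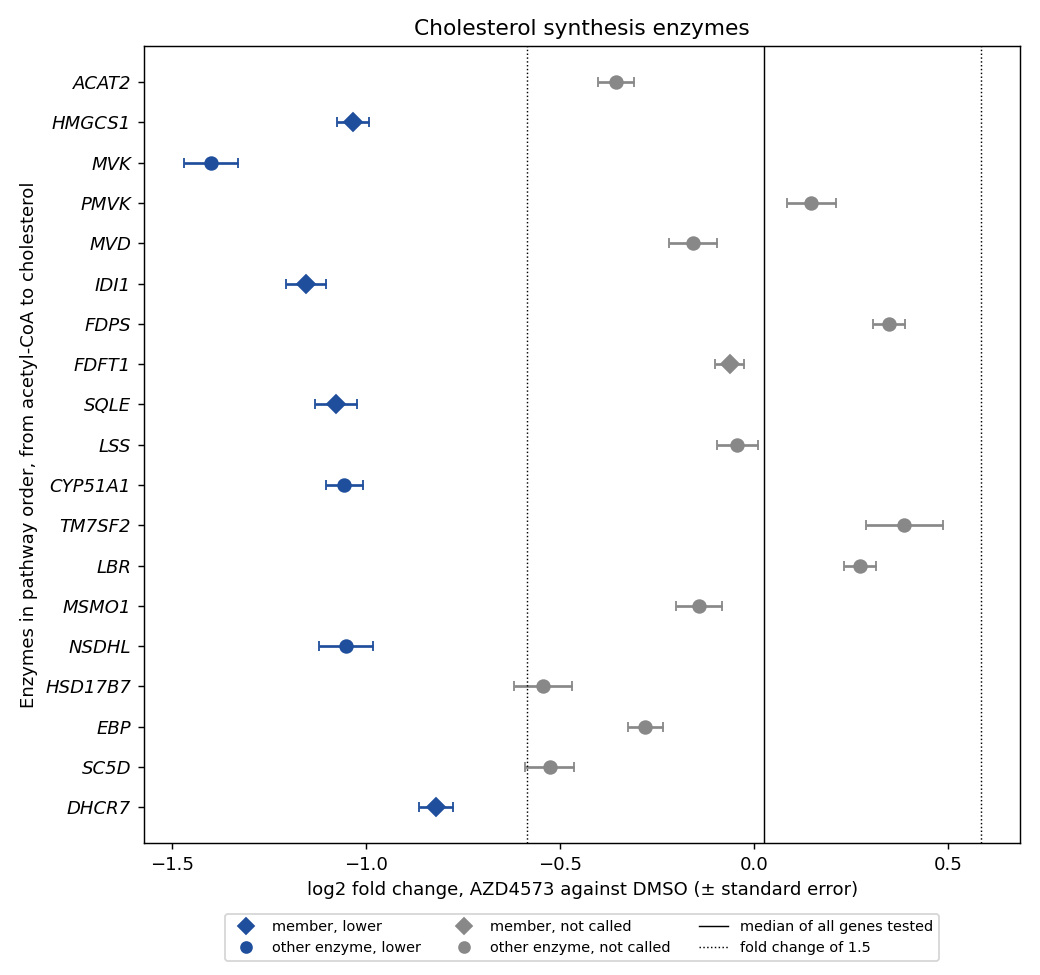
Log2 fold change with its standard error (horizontal axis) of 19 cholesterol synthesis enzymes in pathway order from top to bottom, members as diamonds and the others as circles, blue where called lower and grey where not called. The 7 lower genes drawn sit between MVK at -1.40 and DHCR7 at -0.82, while FDFT1 lies beside the median of all genes tested (solid line at 0.03).

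The choice of scaling moved all members by a similar amount. Of all calls, 48.9% were in the higher direction with TMM, against 15.8% if mitochondrially encoded mRNAs set the scale. With the latter, the median log2 fold change of all genes tested moved from 0.03 to -0.71, and that of each member moved with it. HMGCS1 (-1.77), IDI1 (-1.89), SQLE (-1.81) and DHCR7 (-1.56) were below this median, and SREBF2 (-0.06) lay above it by 0.65. SREBF1 (-0.79), FDFT1 (-0.80) and INSIG1 (-0.95) came close to the median and were then called lower. Which scaling describes the amount of RNA per cell was not tested.

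**Figure D3:**
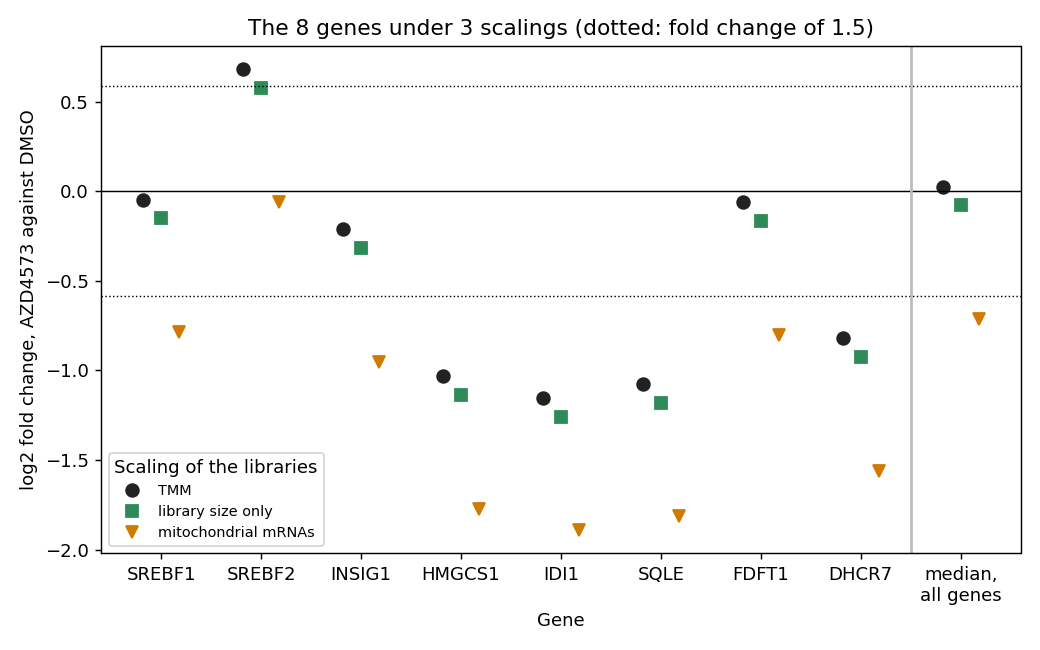
Log2 fold change (vertical axis) of the 8 genes and the median of all genes tested under TMM (black circles), library size only (green squares) and scaling to the mitochondrially encoded mRNAs (orange triangles), with a fold change of 1.5 as dotted lines. Each gene shifts by about the same amount as the median, so that SREBF2 goes from 0.68 to -0.06 and HMGCS1 from -1.03 to -1.77.

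Genes that process SREBP or sense sterols around INSIG1 were listed next. Of 11 tested, 5 were lower and 0 higher, beside 23.7% and 22.7% of all genes, with a median log2 fold change of -0.51. SCAP, the escort of SREBP, had a log2 fold change of 0.49 (edgeR adjusted p = 3.3e-07), which reversed to -0.25 when scaled to the mitochondrially encoded mRNAs. INSIG2, the paralog of INSIG1, had -0.51 and the Golgi protease MBTPS1 -0.22, both past the test but short of the fold threshold. The protease of the next cut, MBTPS2, fell (-0.65), although 1093 of its 8945 exon bases are shared with YY2. SPRING1 fell as well (-0.83), a cofactor of SREBP processing. RNF139, a ubiquitin ligase of the endoplasmic reticulum (-0.85), and TRIB1, a scaffold pseudokinase (-2.30), were also lower.

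Genes of cholesterol uptake and transport gave 4 lower and 2 higher of 14 tested, set beside 23.7% and 22.7% of all genes, with a median log2 fold change of -0.18. MYLIP, a ubiquitin ligase induced by LXR, fell by 2.19 on the log2 scale, and STARD4, a sterol transfer protein, by 0.79. VLDLR, a lipoprotein receptor, rose by 0.98, and GRAMD1C, a sterol transporter, by 0.97. Under mitochondrial scaling both calls were lost, at 0.24 for VLDLR and 0.23 for GRAMD1C. GRAMD1C also had few counts, 91, 49 and 50 with DMSO and 92, 94 and 90 with AZD4573. TMEM97 and GRAMD1B were the other lower genes and were named after their values were seen.

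Efflux, storage and LXR genes gave 1 lower and 3 higher of 9 tested (all genes 23.7% and 22.7%), with a median of 0.07. APOE, the lipid carrier apolipoprotein E, was at 4.11 ± 0.655 CPM with DMSO and 68.1 ± 7.28 CPM with AZD4573 (SD, n = 3), which gave a log2 fold change of 4.05 (SE 0.107, edgeR adjusted p = 1.1e-11). It was higher in each of 13 refits, between 3.31 and 4.17. NCEH1, which hydrolyses cholesterol esters, fell (-1.37). CYP27A1 (1.70) and SOAT2 (0.83) were called higher from few counts, at most 7 and 34 in a DMSO library. CYP27A1 lost its call under mitochondrial scaling (0.98, edgeR adjusted p = 0.104) and was not tested with a minimum of 10 counts in every library. SOAT2 lost its call with DESeq2 (0.84), without the filter (0.79) and without DMSO replicate 1 (0.72), among others. ABCA1, CH25H and CYP7B1 did not pass the filter.

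The fatty acid genes that SREBP-1 activates gave 2 lower and 0 higher of 14 tested (all genes 23.7% and 22.7%), with a median of -0.06. FASN, fatty acid synthase, was at 954 ± 97.4 CPM with DMSO and 849 ± 41.4 CPM with AZD4573 (SD, n = 3), and its groups overlapped (log2 fold change -0.17, edgeR adjusted p = 0.0322). The FASN value passed the test no longer without DMSO replicate 2 (edgeR adjusted p = 0.0927), DMSO replicate 3 (0.102), AZD4573 replicate 1 (0.0691) or AZD4573 replicate 3 (0.130), and it was -0.26 (0.000128) without DMSO replicate 1. GPAM, which begins glycerolipid synthesis, fell (-1.81), as did MID1IP1 (-0.65), an activator of acetyl-CoA carboxylase.

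The isoprenoid branch, which draws on the same pyrophosphates as FDFT1, gave 7 lower and 0 higher of 13 tested (23.7% and 22.7% over all genes), with a median of -0.59. RCE1, the protease that trims prenylated proteins, had a log2 fold change of -2.06 and COQ2 of ubiquinone synthesis -1.60. PGGT1B of geranylgeranyl transfer was 2.47-fold lower, and NUS1 of dolichol synthesis had -0.98. RCE1 shares 569 of 3001 exon bases with C11orf80 on the same strand.

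**Figure D4:**
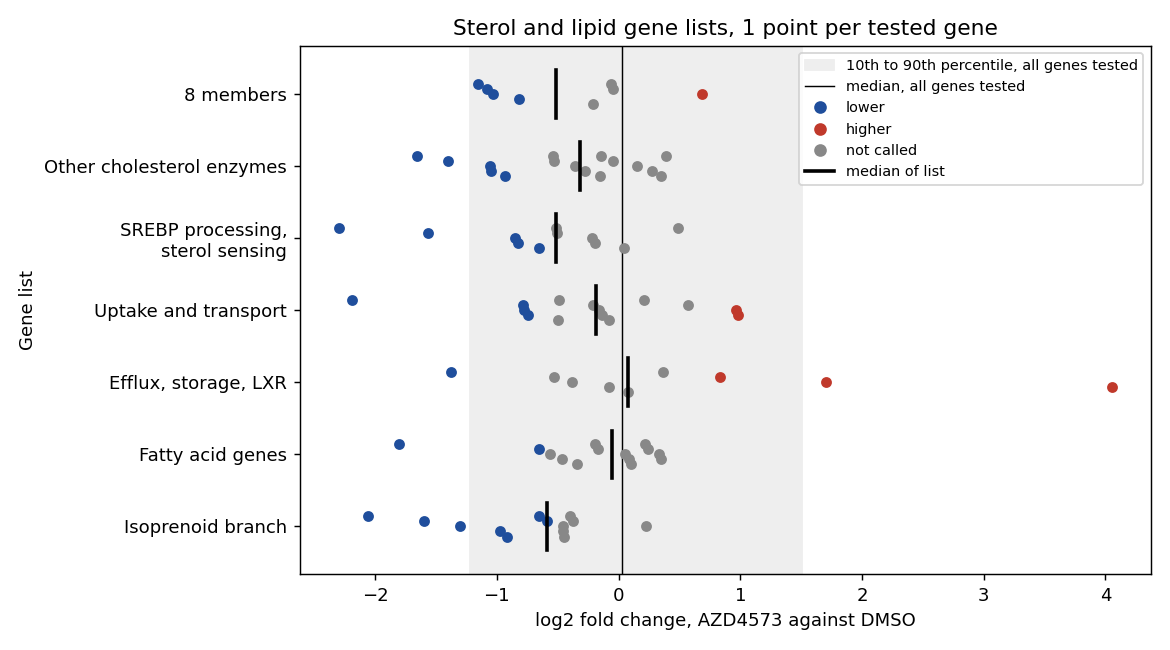
Log2 fold change (horizontal axis) of each tested gene in 7 lists, blue where lower, red where higher and grey where not called, with the median of each list as a black bar and the 10th to 90th percentile of all genes tested (-1.22 to 1.51) shaded. The medians of the 8 members (-0.51) and of each other list lie left of the line at 0.03, except that of efflux, storage and LXR genes (0.07), and APOE stands alone at 4.05.

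The genes whose profiles over the 6 libraries were most like those of IDI1 and SREBF2 were found among 9053 genes with a symbol and a mean of at least 10 CPM, by the root mean square difference of log2 CPM centred on each gene's mean. For IDI1 these were ERI1 (difference 0.0252), ZNF207 (0.0266) and BEND3 (0.0298). For SREBF2 they were CD3E (0.0119), TCFL5 (0.0119) and AHCYL1 (0.0122). Over 6 libraries in 2 groups this measure mostly reflects the size of the fold change, which was between -1.13 and -1.12 for the IDI1 neighbours and between 0.67 and 0.70 for those of SREBF2.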

How the data were processed

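Libraries of H9 cells were assigned to DMSO or AZD4573 (3 each) from the sample labels. Per the labels and supplemental methods, the authors used FastQC 0.11.8, Cutadapt 2.3 for trimming, STAR 2.7.8a for alignment to GRCh38 and RSEM 1.3.3 for quantification, whose default settings ignore strand. The deposited table holds RSEM expected counts that are whole and not normalised. Poly(A) selection is named in the labels, rRNA depletion in the supplemental methods. A count of 0 allows up to 0.0392 to 0.0576 CPM, depending on the library (3 counts, counting error only). The table also held 5 reporter sequences, which had 0 counts.

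All genes were fitted in R 4.3.3 with edgeR 4.0.16 (filter on low counts with a minimum count of 10, TMM, quasi-likelihood test, Benjamini-Hochberg adjustment). CPM errors are SD over libraries. Confidence intervals used the standard error and the degrees of freedom of that test, and log2 CPM used a prior count of 2. The procedure was tested on simulated data. Positions and exons came from GENCODE release 44 and start sites from RefSeq.

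The members and lists were chosen with earlier results of these data known. Genes named were the 8 members, set genes (among them SCAP, INSIG2, MBTPS1, MBTPS2 and FASN), the 4 largest called changes in each of 6 lists and the 3 nearest profiles for IDI1 and SREBF2. Some genes of the lists are counted but not reported by name here. Alternatives were RLE factors, library size only, mitochondrial scaling, other filters, a replicate block, DESeq2 1.42.0, each library left out, a fold change of at least 2 and an unadjusted p. No 2 libraries of a group were alike within sampling noise.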

Additional observations from a re-analysis of the deposited data

How the results depend on the processing

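Scaling to mitochondrially encoded mRNAs gave 9433 lower and 1769 higher genes (15.8% of calls higher, against 48.9% with TMM), with 7 members lower and 0 higher. The lower genes were then 13 of the other enzymes, 10 of SREBP processing, 10 of uptake and transport (0 higher), 5 of efflux and storage (1 higher), 10 of the fatty acid genes and 12 of the isoprenoid branch. The log2 fold change of SREBF2 reversed to -0.058 and that of SCAP to -0.25, and SREBF1 (-0.79), INSIG1 (-0.95) and FDFT1 (-0.80) became called. Over all genes the median moved to -0.71 under this scaling. With library size only, 0 members were higher, since SREBF2 (0.58) fell short of the threshold, and 2 efflux and storage genes were lower. At a fold change of at least 2, stricter by construction, 2450 genes were lower and 2643 higher. SREBF2 (0.68) and DHCR7 (-0.82) were then not called, leaving 0 members higher. The lists kept 2 lower genes of SREBP processing, 1 of uptake and transport (0 higher), 1 fatty acid gene and 3 of the isoprenoid branch.

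With each library left out in turn, the log2 fold change of SREBF1 ranged from -0.13 to 0.00070, a reversal without AZD4573 replicate 1. No other member changed its call or direction in these 6 fits. Of 120 values of the members, 112 kept direction and call, 3 lost the call, 3 gained it and 2 reversed. Of 419 values of the other named genes, 21 lost the call, 5 gained it and 1 (SCAP) reversed.

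Correlations between same-numbered libraries of their deviations from the group mean were -0.0208, 0.0417 and 0.0316 for replicates 1, 2 and 3. For DMSO replicates 2 and 3, the AZD4573 library of the same number correlated best. With 3 libraries per group, these values cannot show whether the replicate numbers pair the libraries. With the number as a replicate block, 4162 genes were lower and 3926 higher against 4191 and 4012 without, and no member changed its call.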
